A study of Homo sapiens with 4 samples.

Results

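The lysosome and autophagy genes described here are 41 genes that were listed by gene name, and all 41 were found among the 58302 genes measured. They comprise 3 transcription regulators, 13 lysosomal hydrolases, 3 activators and other proteins of the lysosome lumen, 4 membrane proteins, 5 genes of the proton pump, 12 autophagy genes and 1 gene that positions lysosomes in the cell. The list was chosen by function and not by measured values, although earlier results of these data were known when it was drawn up.

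The values come from mRNA-seq of HepG2, a human hepatocellular carcinoma cell line, of wild-type genotype by its labels. Cells were given 1 mM melatonin or the solvent DMSO, each for 24 h and for 48 h, in MEM with serum. There is 1 library for each of the 4 conditions, so that no difference between libraries can be set against a spread between cultures. No p-value is therefore given, and every interval below covers counting error only.

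Expression is given as FPKM, the number of fragments divided by the length of the gene and by the size of the library, as the authors deposited it. FPKM is a level per length, so levels can be set side by side between genes, within a limit. The length is the gene length deposited with the values, such as 12611 bases for HEXA and 3239 for PSAP. Whether it is the length of the RNA expressed was not checked, and levels between genes depend on it. A fold change is the log2 of (FPKM + 1) in one library over (FPKM + 1) in the other, which understates the change of genes at low levels. A gene was counted in a comparison if its FPKM reached 1 in either library, and it was called changed at 1.5-fold, a log2 fold change of 0.58 or more in size. The verbs rose and fell are kept for genes past that size. A ratio is the plain quotient of the FPKM values, with its 95% exact binomial counting interval in brackets.

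The lysosome is an acidic organelle in which hydrolases break down proteins, glycans, lipids and glycogen. Cargo reaches it by endocytosis and by autophagy, in which a double membrane closes around cytoplasm and then fuses with the lysosome. The transcription factors TFEB, TFE3 and MITF bind a short E-box sequence in the promoters of many lysosomal genes, named the CLEAR element, and nutrient signalling through mTORC1 holds these factors in the cytoplasm. In hepatocytes autophagy supplies amino acids in fasting and removes damaged organelles.

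The CLEAR element could be looked for directly, because RefSeq promoters (GRCh38.p14, 250 bases before to 50 bases after the start site) were at hand for 32 of the 41 members, in 40 windows. The letters TCACGTG, searched on both strands, were in 7 of these 32 genes (21.9%), against 4.49% of all 27305 genes with a promoter. They were in 17.5% of the members' windows and in 3.71% of all 35116 windows. The longer form TCACGTGA, which contains the shorter one, was in 5 of the 32 members (15.6%) and in 1.18% of all genes with a promoter. The plain E-box CACGTG, contained in both, was in 8.77% of all genes with a promoter and in no member that lacked the 7-letter form.

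The 7 members were the hydrolase genes CTSA, CTSD, GAA and NEU1, the membrane protein genes LAMP1 and MCOLN1, and the proton pump gene ATP6V0D1. Without a window, and so not searched, were 9 members: CTSB, HEXA, NAGLU, PSAP, LAMP2, ATP6V1A, ATP6V1B2, ATP6V1H and UVRAG. Only 2 of the pump genes had a window. None of the 11 autophagy genes with a window held the letters CACGTG, and neither did the 3 regulators. A match is a description of letters in the window and not of binding. Of the 7 genes, 4 are shown to let the matches be read beside the values below. LAMP1 held the most matches, MCOLN1 held a closely spaced pair, and GAA and NEU1 are those that passed 1.5-fold with melatonin.

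The sequences run 5′ to 3′ up to the first annotated exon of the gene, and capitals mark the letters CACGTG. LAMP1 lies at chr13:113296989-113297238 on the plus strand, MCOLN1 at chr19:7522374-7522623 on the plus strand, GAA at chr17:80101331-80101532 on the plus strand and NEU1 at chr6:31862906-31863071 on the minus strand.
LAMP1: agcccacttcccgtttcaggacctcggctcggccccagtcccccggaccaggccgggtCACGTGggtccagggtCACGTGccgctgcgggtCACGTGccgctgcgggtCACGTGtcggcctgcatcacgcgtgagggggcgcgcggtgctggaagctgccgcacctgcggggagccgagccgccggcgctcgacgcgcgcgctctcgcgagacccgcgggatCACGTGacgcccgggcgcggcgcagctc
MCOLN1: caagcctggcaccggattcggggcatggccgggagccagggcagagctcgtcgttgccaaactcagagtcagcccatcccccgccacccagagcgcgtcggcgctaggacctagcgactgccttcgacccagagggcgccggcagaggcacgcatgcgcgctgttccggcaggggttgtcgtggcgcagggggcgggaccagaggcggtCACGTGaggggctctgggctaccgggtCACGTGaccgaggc
GAA: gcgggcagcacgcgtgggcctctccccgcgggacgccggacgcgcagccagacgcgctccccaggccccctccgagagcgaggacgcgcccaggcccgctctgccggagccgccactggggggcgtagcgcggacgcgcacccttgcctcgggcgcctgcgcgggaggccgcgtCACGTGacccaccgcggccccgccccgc
NEU1: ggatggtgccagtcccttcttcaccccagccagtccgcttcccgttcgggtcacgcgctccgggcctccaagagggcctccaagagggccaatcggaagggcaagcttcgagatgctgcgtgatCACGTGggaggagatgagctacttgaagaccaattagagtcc

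The LAMP1 stretch shows 5 matches, of which 4 stand in a row, and a sixth was centred 2 bases past the start site. GAA had a further match, centred 28 bases before the start, in a stretch that is not shown because it overlaps an annotated exon.

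**Figure D1:**
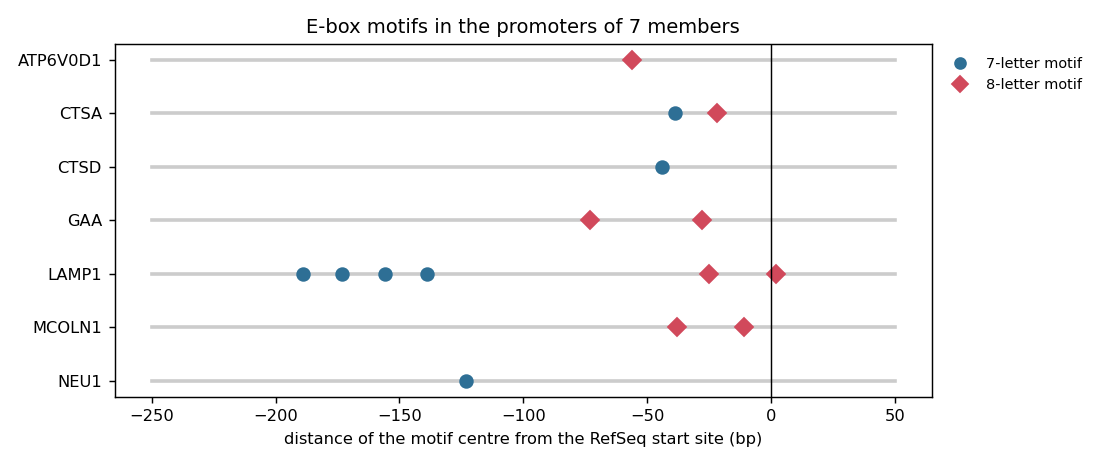
Position of each E-box match in the promoter windows of the 7 members that hold one, as the distance in bp of the match's centre from the RefSeq start site (x axis), with 1 line per gene; circles are the 7-letter motif and diamonds the 8-letter motif. LAMP1 holds 6 matches, and CTSA, GAA and MCOLN1 hold 2 each.

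The libraries were of similar depth in reads on genes, with 21616676 to 23086025, recovered from FPKM and gene length. The library sizes that the FPKM imply were smaller in each library. They differed more, from 18357838 in DMSO at 24 h to 22205042 with melatonin at 48 h. The share of mitochondrial reads was higher at 24 h (16.6% to 20.0%) than at 48 h (9.77% to 11.9%). Values with reads on nuclear genes as the library size are given below. Any other part of this share in the results was not tested. The 8 genes of the hepatocyte lineage that were looked at, such as ALB and HNF4A, stood at 8.94 to 3343 FPKM. Of 12 markers of cells foreign to such a culture, COL1A2 and DCN were at 0 in every library, and 3 passed 1 FPKM in some library, with at most 4.33 FPKM. The summed level of the leukocyte and macrophage markers, cells rich in lysosomes, lay between 0.340 and 1.17 FPKM.

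Over the members as a whole, melatonin and DMSO differed in opposite directions at the 2 times. At 24 h, 29 of the 39 members with enough signal were higher with melatonin, beside 53.5% of all genes and 57.9% of protein-coding genes. The members' median log2 fold change was 0.18, beside 0.02 for all 13582 genes counted. At 48 h, 28 of the same 39 members were lower with melatonin, beside 52.5% of all genes and 51.0% of protein-coding genes. The members' median was -0.22, beside -0.02 for all 13805 genes. MITF and the cathepsin gene CTSZ did not reach 1 FPKM in any library and were left out of these counts. Because RNA was taken from whole cultures, fewer cells that express a gene and less of its RNA per cell cannot be told apart.

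Few members passed 1.5-fold. At 24 h 4 of 39 rose and none fell, where 4.02% of all genes rose and 7.53% fell. Among the 10362 protein-coding genes with at least 50 reads, a background nearer to the members in depth, 1.85% rose and 2.62% fell. At 48 h 4 of 39 rose and 4 fell, close to the 8.62% and 10.0% of all genes, or the 6.75% and 6.26% of 10479 deeper protein-coding genes. At 48 h the share of members past 1.5-fold was thus near that of all genes, and their medians lay further from 0. As FPKM no member passed 2-fold with melatonin at either time, against 4.35% of all genes at 24 h and 5.72% at 48 h. On the TPM scale, in which all libraries sum to the same total, WIPI1 passed it at 24 h with a log2 fold change of 1.03 and ULK1 at 48 h with one of -1.02.

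**Figure D2:**
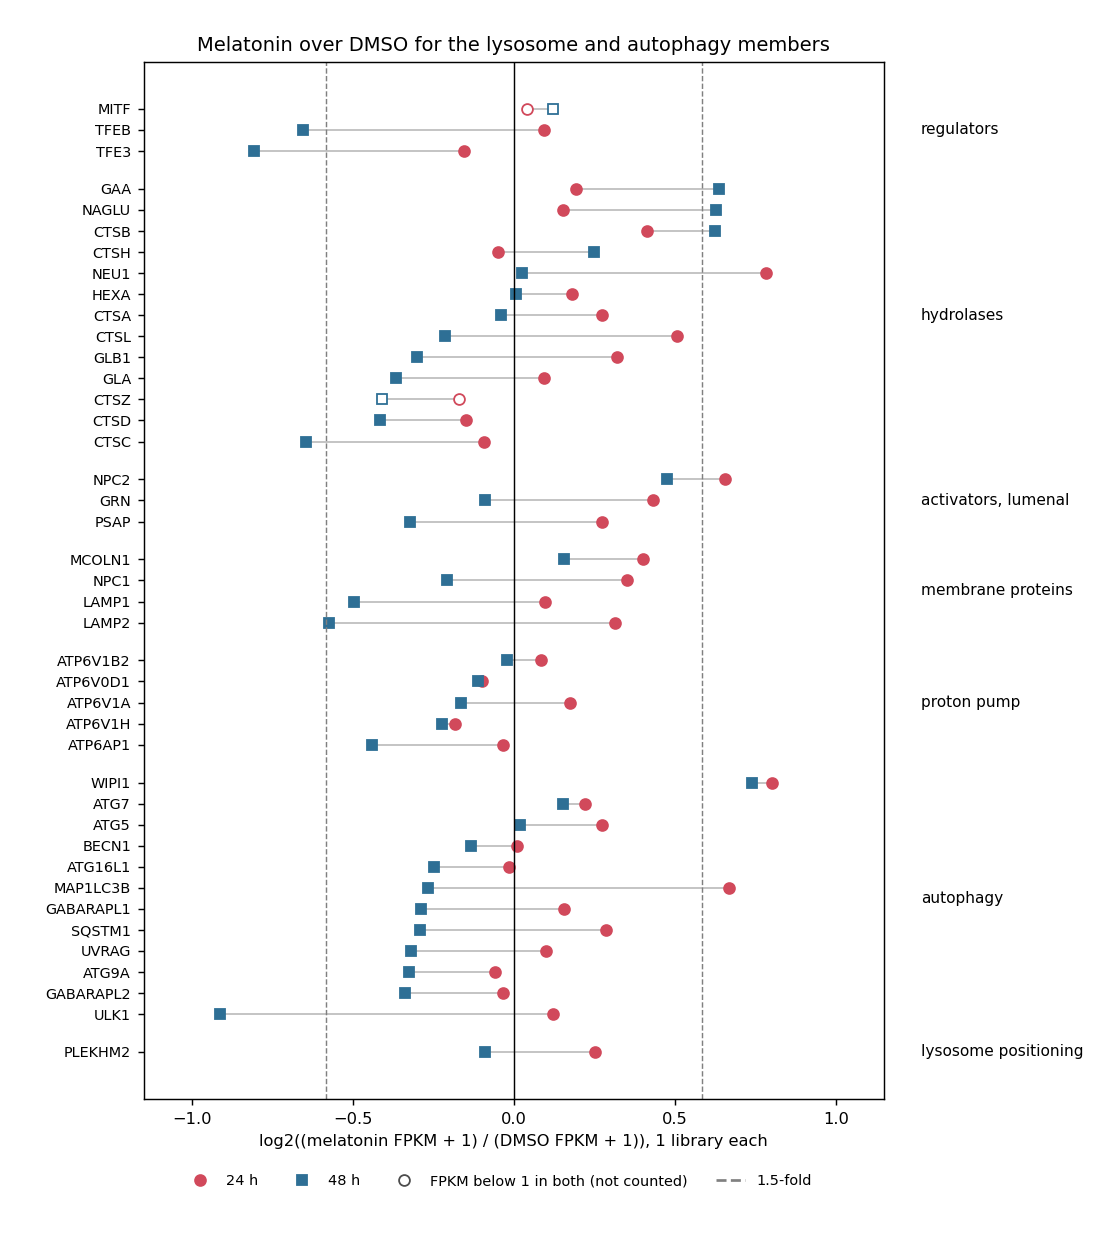
log2 fold change (FPKM + 1) of melatonin over DMSO (x axis) for each of the 41 members, grouped by role; circles are 24 h, squares 48 h, a line joins the times of a gene, open symbols are the 2 members below 1 FPKM, and dashed lines mark 1.5-fold. Most circles lie right of 0 and most squares left of it, and WIPI1 is past 1.5-fold on the right at both times.

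Among the members, the library that stood out was DMSO at 48 h. It held the highest FPKM of the 4 for 24 of the 39 members (61.5%), beside 33.1% of all genes. DMSO at 24 h held the lowest for 23 (59.0%), beside 24.7%. Of the 137 further pathway genes described below, DMSO at 48 h held the highest FPKM for 36.5% and the lowest for 27.0%. DMSO at 24 h held the lowest for 47.4% of them. From 24 h to 48 h in DMSO 10 members rose and 2 fell, with 32 of 39 above 0 and a median of 0.25, where 11.2% of all 13854 genes rose and 12.6% fell. Among deeper protein-coding genes 7.58% rose and 10.6% fell. Past 2-fold were 4 members, LAMP2, MAP1LC3B, GABARAPL1 and ULK1, and 7.74% of all genes. With melatonin the same interval of time left the members centred on 0, with a median of -0.00 and 19 of 39 above 0. Here 3 members rose and 2 fell, where 6.76% of all genes rose and 6.05% fell, or 2.40% and 4.25% of deeper protein-coding genes. None passed 2-fold, against 4.15% of all genes. The comparisons at a given time and those over time share libraries, so they are values set side by side and not independent results.

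These levels depend on the scale in a known way. Rescaled to TPM, the median of all genes moved by 0.15 for melatonin at 24 h, by -0.04 at 48 h, by 0.46 over time in DMSO and by 0.27 over time with melatonin. The members' median less that of all genes was 0.17, -0.23, 0.29 and 0.02 in these comparisons as TPM, beside 0.15, -0.20, 0.24 and 0.04 as FPKM. With reads on nuclear genes as the library size that difference was 0.15, -0.19, 0.24 and 0.03. A change of library scale shifts members and all genes almost alike, so this difference could hardly change with it. The members' median itself was 0.34 with melatonin at 24 h and -0.29 at 48 h as TPM. With reads on nuclear genes it was 0.18 and -0.15, so it lay on opposite sides of 0 on each scale. DMSO at 48 h was still the highest library for 30 of 40 members as TPM (75.0%), but so it was for 47.2% of all genes and 49.7% of the further pathway genes.

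**Figure D3:**
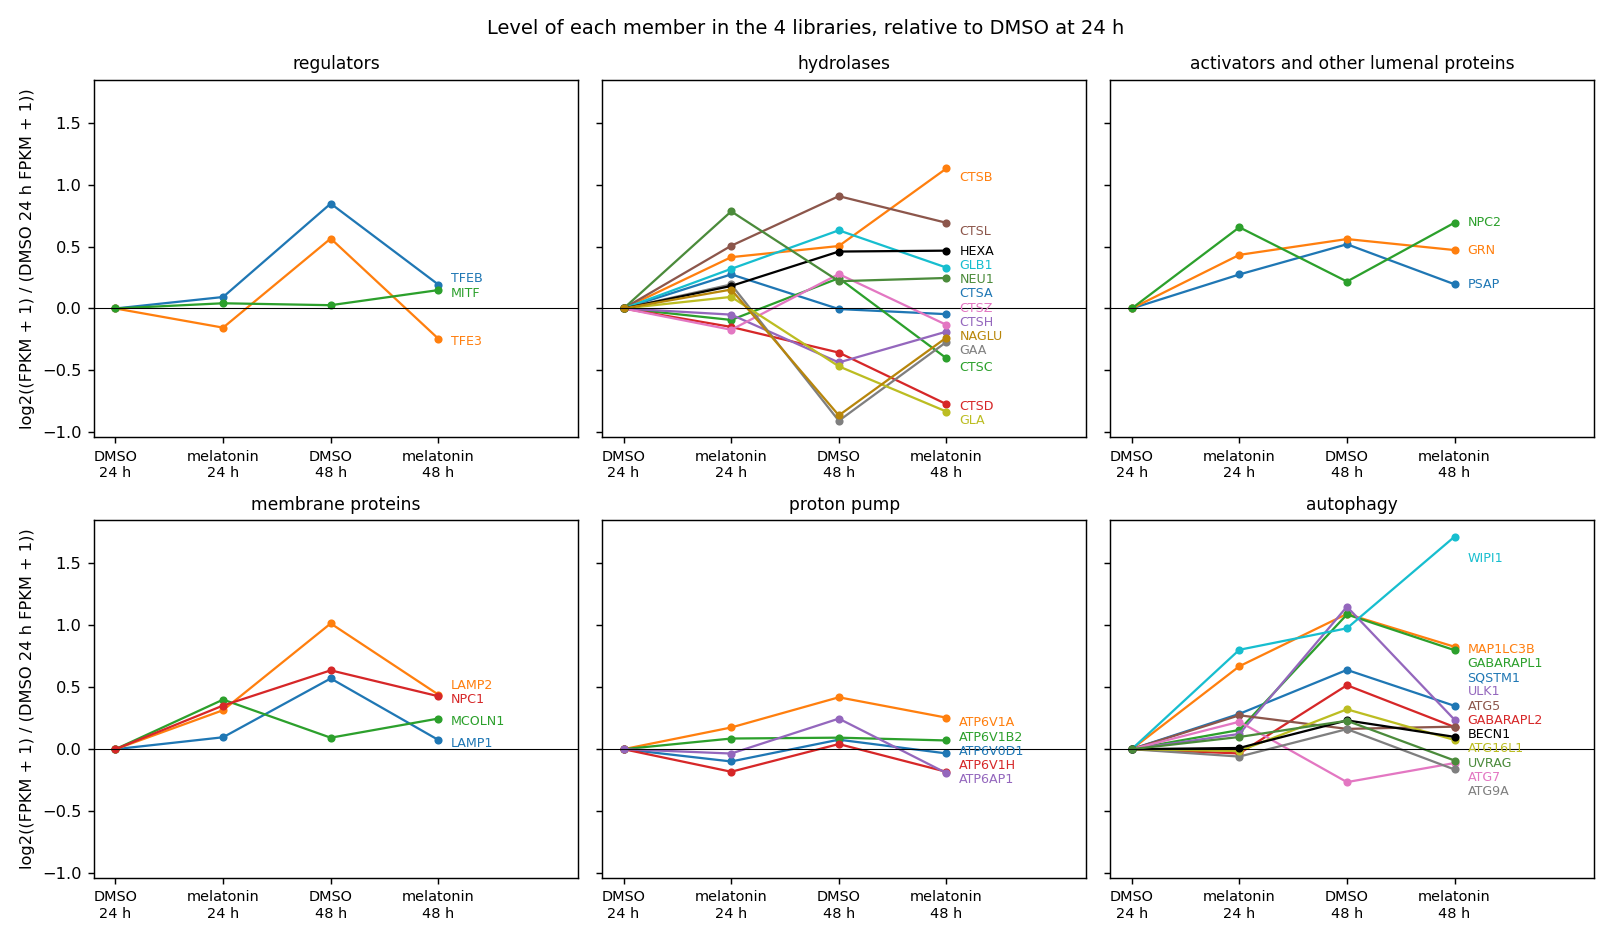
log2 of (FPKM + 1) in each library over that in DMSO at 24 h (y axis) for every member, 1 line per gene, by treatment within time, 24 h first (x axis), with 1 panel for each role that has several genes. TFEB, TFE3, LAMP1, LAMP2, NPC1 and most autophagy genes are highest in DMSO at 48 h, MITF and MCOLN1 are not, and GAA and NAGLU are lowest there.

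The regulators were low to moderate in level. TFEB, which switches on lysosomal genes when nutrients are short (chr6:41683978-41736259 on hg38, minus strand), stood at 2.30 FPKM in DMSO and 2.51 under melatonin at 24 h, and at 4.92 and 2.77 at 48 h. TFE3, a close relative with overlapping targets, stood at 10.5 and 9.35 FPKM at 24 h and at 16.0 and 8.73 at 48 h. Both were thus highest in DMSO at 48 h, and the other 3 libraries lay close together as FPKM.

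Relative to DMSO, TFEB fell at 48 h by 0.65 on the log2 scale, a ratio of 0.562 (0.491 to 0.642), and its 24 h ratio of 1.10 (0.919 to 1.31) had an interval that includes 1. TFE3 fell by 0.81 at 48 h, a ratio of 0.544 (0.499 to 0.593), after a ratio of 0.889 (0.806 to 0.980) at 24 h. Over time in DMSO TFEB rose, with a log2 fold change of 0.85, and TFE3 had one of 0.56, just short of 1.5-fold. MITF, best known from melanocytes, was nearly silent, at 0.0379, 0.0685, 0.0571 and 0.150 FPKM in the same order, from 5 to 24 reads.

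The hydrolases were split at 48 h. Their median log2 fold change was 0.19 at 24 h, with 9 of 12 above 0, and -0.02 at 48 h, with 6 above and 6 below, where the median passed above 0 (to 0.04) with reads on nuclear genes as the library size. One hydrolase rose at 24 h, and 3 rose and 1 fell at 48 h. Of all genes 4.02% rose at 24 h, and 8.62% rose and 10.0% fell at 48 h. Fold changes ran from -0.15 for CTSD to 0.78 for NEU1 at 24 h, and from -0.65 for CTSC to 0.64 for GAA at 48 h.

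NEU1, the sialidase that trims sialic acid from glycoproteins, stood at 48.2 FPKM in DMSO and 83.7 under melatonin at 24 h, and at 56.3 and 57.3 at 48 h. As FPKM a single library, melatonin at 24 h, was set off from the rest. As TPM the log2 fold change was 0.96 with melatonin at 24 h, -0.03 with melatonin at 48 h and 0.72 over time in DMSO. On that scale the library set off was DMSO at 24 h, below the rest. The ratio was 1.74 (1.67 to 1.80) at 24 h and 1.02 (0.983 to 1.06) at 48 h.

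GAA, the enzyme that degrades lysosomal glycogen, stood at 69.7 FPKM in DMSO and 79.8 under melatonin at 24 h, and at 36.7 and 57.6 at 48 h. NAGLU, which removes terminal N-acetylglucosamine from heparan sulfate, stood at 18.2 and 20.4 FPKM at 24 h and at 9.56 and 15.3 at 48 h. For both genes DMSO at 48 h was the lowest library, the reverse of TFEB and TFE3. GAA rose with melatonin at 48 h with a ratio of 1.57 (1.51 to 1.63), and NAGLU with a log2 fold change of 0.63 and a counting interval of its ratio from 1.45 to 1.77.

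Over time in DMSO GAA fell by 0.91 and NAGLU by 0.86 on the log2 scale of FPKM. As TPM the values were -0.42 and -0.41, and neither passed 1.5-fold. Part of the NAGLU exon sequence, 379 bases, is shared with another annotated gene on the same strand, so its reads could be split in counting.

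CTSB, an abundant cysteine protease, stood at 116 FPKM in DMSO and 155 under melatonin at 24 h, and at 165 and 256 at 48 h. It was highest with melatonin at both times and higher at 48 h than at 24 h under both treatments. The log2 fold change with melatonin was 0.41 at 24 h and 0.63 at 48 h. As TPM it was 0.59 at 24 h, past 1.5-fold, and 0.57 at 48 h, short of it. The ratio at 48 h was 1.55 (1.52 to 1.57).

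CTSC, which activates serine proteases by removing dipeptides, stood at 13.0 FPKM in DMSO and 12.1 under melatonin at 24 h, and at 15.5 and 9.56 at 48 h. It was the one hydrolase that fell at 48 h, with a ratio of 0.616 (0.585 to 0.648). CTSD, the main aspartic protease of the lysosome, stood at 48.2 and 43.3 FPKM at 24 h and at 37.4 and 27.8 at 48 h. Its melatonin ratios of 0.900 (0.853 to 0.949) and 0.743 (0.700 to 0.788) were below 1 at both times, and the log2 fold change of -0.15 at 24 h became 0.02 as TPM.

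The CTSD exons overlap annotated genes on both strands, and the sources used do not say whether strand was used in counting. With melatonin CTSD fell from 24 h to 48 h by 0.62, as did GLA, the alpha-galactosidase, by 0.93, whereas CTSB rose by 0.72. As TPM the CTSD value was -0.36 and the GLA value -0.71. The other tested hydrolases, CTSA, CTSH, CTSL, GLB1 and HEXA, had log2 fold changes with melatonin between -0.05 and 0.51 at 24 h and between -0.30 and 0.25 at 48 h. As TPM CTSL had one of 0.69 at 24 h, past 1.5-fold.

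The 3 lumenal proteins without hydrolase activity of their own had the highest class median at 24 h, 0.43, with 3 of 3 above 0, and a median of -0.09 at 48 h. NPC2, which hands cholesterol to the membrane protein NPC1, stood at 17.5 FPKM in DMSO and 28.2 under melatonin at 24 h, and at 20.6 and 28.9 at 48 h. Both melatonin libraries were above both DMSO libraries. NPC2 rose at 24 h with a ratio of 1.61 (1.48 to 1.75) and had one of 1.41 (1.31 to 1.52) at 48 h, below 1.5-fold.

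PSAP, the precursor of the saposins that help enzymes reach sphingolipids, was the most abundant member by FPKM. It stood at 244, 296, 350.4 and 280.0 FPKM, in DMSO then melatonin at 24 h and in DMSO then melatonin at 48 h. GRN, the precursor of the granulins, stood at 65.2, 88.4, 96.6 and 90.8 FPKM in that order. Both were lowest in DMSO at 24 h and highest in DMSO at 48 h, and neither passed 1.5-fold with melatonin as FPKM. As TPM GRN did so at 24 h, with a log2 fold change of 0.61.

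The 4 membrane proteins had a median of 0.33 at 24 h, with 4 of 4 above 0, and of -0.35 at 48 h, with 3 of 4 below 0. None passed 1.5-fold with melatonin as FPKM. MCOLN1 did so at 24 h as TPM, with a log2 fold change of 0.62 in place of 0.40, and LAMP2 at 48 h as TPM and after correction for GC content and length. LAMP1, a heavily glycosylated protein that lines the lysosome, stood at 53.1 FPKM in DMSO and 56.8 under melatonin at 24 h, and at 79.3 and 55.9 at 48 h. The DMSO library at 48 h was set off from the other 3, and the melatonin ratio went from 1.07 (1.03 to 1.11) to 0.705 (0.684 to 0.727).

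LAMP2, its partner, which also serves chaperone-mediated autophagy, stood at 40.1, 50.2, 82.1 and 54.8 FPKM in the order above. It rose over time in DMSO with a ratio of 2.05 (1.97 to 2.12), and its 48 h log2 fold change with melatonin, -0.57, was just short of the threshold and reached -0.63 as TPM and -0.61 after that correction. NPC1, the cholesterol exporter, rose over time in DMSO too, with a log2 fold change of 0.64. MCOLN1, the lysosomal calcium channel, was low, at 2.33, 3.39, 2.55 and 2.95 FPKM, and DMSO at 48 h was not its highest library.

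The proton pump, the V-ATPase that acidifies the lysosome, is built of many subunits, of which 5 genes were listed. They had a median of -0.04 at 24 h, which became 0.14 as TPM, and of -0.16 at 48 h. None passed 1.5-fold in any of the 4 comparisons as FPKM. Fold changes with melatonin ran from -0.18 for ATP6V1H to 0.18 for ATP6V1A at 24 h, and from -0.44 for the accessory subunit ATP6AP1 to -0.02 for ATP6V1B2 at 48 h. Levels ran from 4.11 to 50.3 FPKM.

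The autophagy genes had a median of 0.14 at 24 h, with 9 of 12 above 0, and of -0.28 at 48 h, with 9 of 12 below 0. Of the 4 comparisons they moved most over time in DMSO, where 5 of 12 rose, 11 were above 0 and the median was 0.42. The 5 were SQSTM1, MAP1LC3B, GABARAPL1, ULK1 and WIPI1. In that comparison 11.2% of all genes rose and 50.3% were above 0. With melatonin over time 2 of 12 rose, GABARAPL1 and WIPI1, and the median was 0.09, where 6.76% of all genes rose.

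WIPI1, which reads the lipid PI3P on forming autophagosomes (chr17:68420948-68457513 on hg38, minus strand), was the only member past 1.5-fold in the same direction at both times. It stood at 4.40 FPKM in DMSO and 8.42 under melatonin at 24 h, and at 9.62 and 16.7 at 48 h. Melatonin was above DMSO at each time, and 48 h was above 24 h under each treatment. The melatonin ratio was 1.91 (1.65 to 2.22) at 24 h and 1.74 (1.59 to 1.91) at 48 h, and its log2 fold changes stayed between 0.72 and 1.03 over the alternative scalings and filters. Its exons overlap the sulfatase gene ARSG and another annotated gene on the opposite strand, by at most 829 bases.

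ULK1, the kinase that starts autophagy (chr12:131894651-131923167 on hg38, plus strand), stood at 6.25 FPKM in DMSO and 6.89 under melatonin at 24 h, and at 15.1 and 7.55 at 48 h. The DMSO library at 48 h was far above the rest, which lay between 6.25 and 7.55. ULK1 fell at 48 h with a ratio of 0.500 (0.467 to 0.535), the largest fall with melatonin among the members as FPKM, and rose over time in DMSO with a ratio of 2.41 (2.23 to 2.61).

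MAP1LC3B, the LC3 protein that is coupled to autophagosome membranes (chr16:87383995-87404779 on hg38, plus strand), stood at 8.37 FPKM in DMSO and 13.9 under melatonin at 24 h, and at 19.0 and 15.6 at 48 h. DMSO at 24 h was set off below the other 3 libraries. It rose with melatonin at 24 h with a ratio of 1.66 (1.52 to 1.81), and the ratio at 48 h was 0.823 (0.773 to 0.876). Its near-identical copy MAP1LC3B2 was listed at 1.33, 1.87, 2.99 and 2.70 FPKM in the order used for PSAP, and the split of reads between the 2 genes is uncertain.

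SQSTM1, the receptor p62 that carries ubiquitinated cargo to LC3, stood at 27.5 FPKM in DMSO and 33.7 under melatonin at 24 h, and at 43.4 and 35.3 at 48 h. Its ratios were 1.23 (1.18 to 1.28) and 0.814 (0.786 to 0.842), again on opposite sides of 1. GABARAPL1, of the same family as LC3, stood at 2.93, 3.38, 7.35 and 5.84 FPKM in the order used for PSAP, so that both libraries at 48 h were above both at 24 h. The core conjugation genes ATG5, ATG7 and ATG16L1, the scramblase ATG9A, and BECN1 and UVRAG of the lipid kinase complex had smaller differences, with log2 fold changes with melatonin between -0.06 and 0.27 at 24 h and between -0.33 and 0.15 at 48 h.

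PLEKHM2, which links lysosomes to kinesin so that they move outward, stood at 15.9 FPKM in DMSO and 19.1 under melatonin at 24 h, and at 17.8 and 16.7 at 48 h. The 4 libraries were close together as FPKM. As TPM the log2 fold change over time in DMSO was 0.66, past 1.5-fold, and DMSO at 48 h was the highest library. The ratios were 1.20 (1.12 to 1.30) and 0.936 (0.872 to 1.00).

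The opposite directions at 24 h and 48 h could be counted gene by gene. For 11 of 39 members (28.2%) the counting interval of the ratio was above 1 at 24 h and below 1 at 48 h, beside 4.85% of the 12775 genes counted at both times. Whether an interval leaves out 1 depends on the number of reads, and among the 8657 protein-coding genes that had 169 or more reads in each library, the lowest number among these members, the share was 6.54%. Among the further pathway genes described below it was 13 of 136 (9.56%). The reverse, below 1 and then above 1, was found for 0 of 39 members and 0 of 136 further pathway genes, and for 2.36% of all genes. Signs alone were up then down for 19 members (48.7%), beside 19.6% of all genes and 30.1% of the further pathway genes. They were up at both times for 10 members (25.6%), beside 34.5% of all genes and 47.1% of the further pathway genes. The remaining members were down at both times (9) or down then up (1), beside 32.0% and 13.8% of all genes. A counting interval leaves out the variation between cultures, so these counts describe the 4 libraries and not the treatment in general.

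Members with and without the letters TCACGTG can be set side by side, with no test of their difference. Over time in DMSO the 7 with the letters had a median of 0.08, with 4 above 0, and the 23 without and with enough signal had a median of 0.52, with 20 above 0. For melatonin over DMSO the medians were 0.19 and 0.15 at 24 h and -0.04 and -0.27 at 48 h. Over time with melatonin the 7 had a median of -0.32, with 1 above 0, and the 23 had one of 0.04, with 14 above 0. Among the 7, NEU1 rose at 24 h and GAA at 48 h, and LAMP1, with the most matches, had log2 fold changes of 0.10 and -0.50. The group with the letters holds hydrolases, membrane proteins and a pump gene, and that without holds all autophagy genes with a window, so motif and role cannot be told apart here.

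The wider pathway was described by 159 further genes in 6 lists, of which 136 had enough signal at 24 h and 137 at 48 h. At 24 h they lay on the same side as the members, with 105 of 136 above 0 and a median of 0.17, and 6 rose and 1 fell. Of all genes 53.5% were above 0 at 24 h, 4.02% rose and 7.53% fell. At 48 h the further genes did not lie below 0 as a group, with 71 of 137 above 0 and a median of 0.02. Of them 6 rose and 3 fell, where 8.62% of all genes rose, 10.0% fell and 47.5% were above 0. The further genes' median difference between the effects at 48 h and 24 h was -0.15, beside -0.34 for the members and -0.02 for all genes. Over time in DMSO 93 of the 137 further genes were above 0, with a median of 0.17. Of these 137 genes 15 rose and 9 fell, where 11.2% of all genes rose and 12.6% fell.

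Of the 6 lists the other hydrolases had the highest median at both times. In that list 26 of 31 were above 0 at 24 h, with a median of 0.39, and 21 of 32 at 48 h, with a median of 0.19. ARSA, which removes sulfate from sulfatide, rose at both times, at 8.79 FPKM in DMSO and 14.1 under melatonin at 24 h and at 7.01 and 12.3 at 48 h. In the members and in this list alike, hydrolases had a higher median at 48 h than autophagy genes, at -0.02 against -0.28 and at 0.19 against -0.08.

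In the remaining lists no gene passed 1.5-fold in one direction at both times. Of other membrane proteins, the proton channel TMEM175 rose at 48 h, from 1.76 FPKM with DMSO to 3.38 with melatonin. Of the nutrient sensing genes that control TFEB, FNIP2, a partner of folliculin, rose at 48 h, from 4.81 to 8.96 FPKM. The largest differences at 48 h among other pump subunits, other autophagy genes and genes of enzyme delivery and lysosome movement were -0.58 for ATP6V0C, -0.54 for ATG12 and 0.54 for the Rab7 effector RILP, and none passed 1.5-fold.

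**Figure D4:**
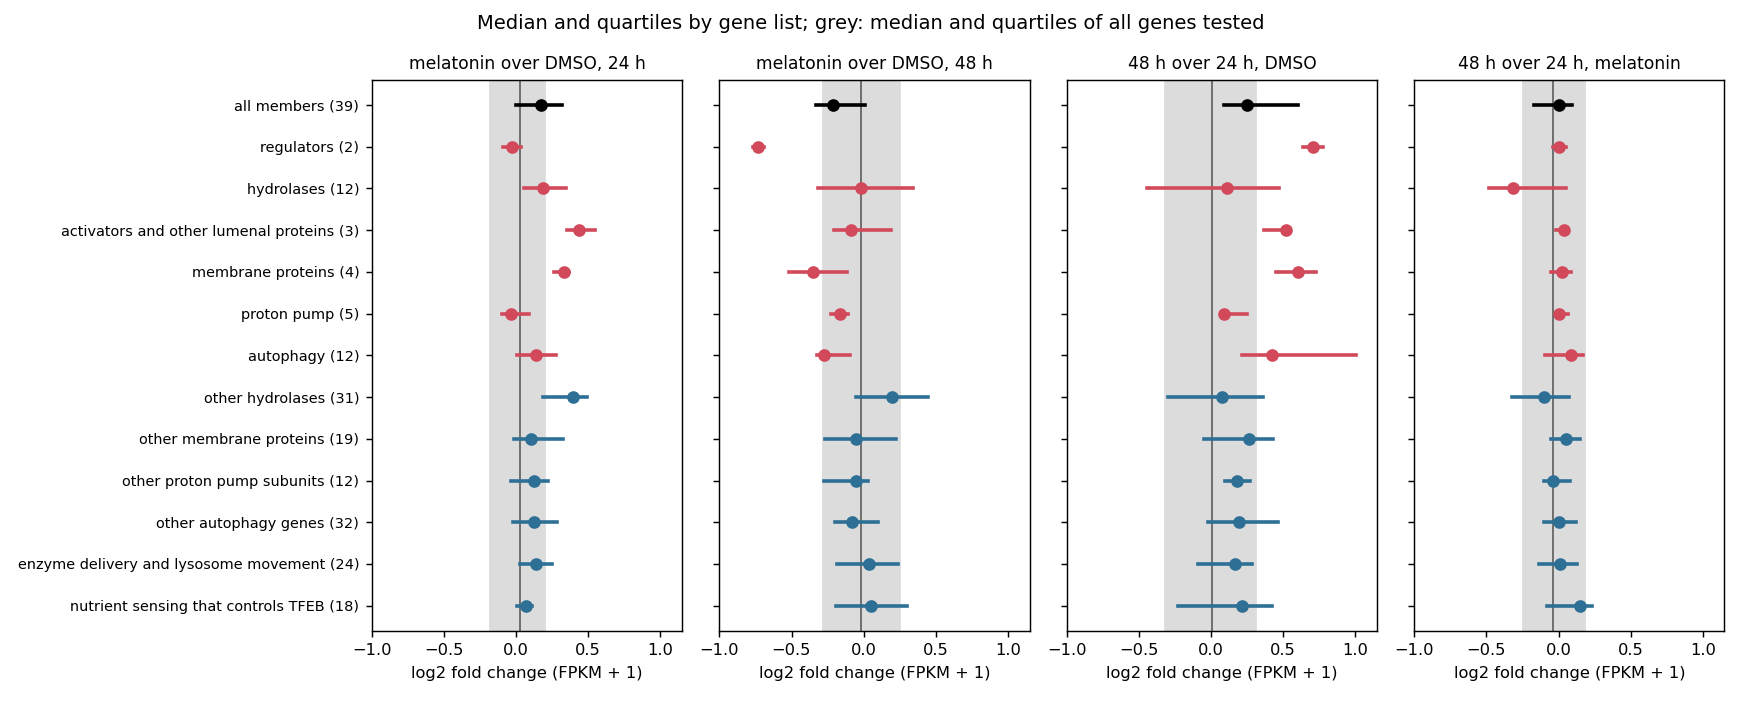
Median log2 fold change (dots) and quartiles (bars) of each list of genes in the 4 comparisons (panels), with black for all members, red for the roles among them and blue for the lists of further pathway genes; numbers in brackets are the genes counted at 24 h, and grey marks the median and quartiles of all genes counted. The members' median is 0.18 for melatonin at 24 h, -0.22 at 48 h, 0.25 over time in DMSO and -0.00 over time with melatonin.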

How the data were processed

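The deposited values are FPKM per Ensembl gene with the gene length beside them (per the file headers), 1 file for each of 4 libraries. The paper's methods name MapSplice on hg38 and Cufflinks, whereas the submitters' processing notes list Bowtie2 2.0.6, TopHat2 2.0.9, Cufflinks 2.1.1 and Cuffdiff 2.1.1. Which of these made the files, and whether strand was used, is not given in the sources used here.

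The product of FPKM and gene length fell on whole multiples of a fixed step in every library, for 100% of values above 0 (tolerance 0.01 reads), so reads per gene were recovered. They gave exact Poisson intervals of levels and exact (Clopper-Pearson) binomial intervals of ratios at 95%, with the library sizes that the FPKM imply (18357838 to 22205042). These intervals and the floor of 3 reads cover counting error only. At that floor a gene of 1 kb would have 0.135 to 0.163 FPKM. Fold changes used a pseudocount of 1, a minimum FPKM of 1 in either library and a 1.5-fold call. With 1 library per condition no test was run and no replicate could be left out.

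The members and lists were chosen with earlier results of these data known. Values in every library are given for TFEB, TFE3, MITF, LAMP1, CTSD, SQSTM1, MAP1LC3B, PLEKHM2 and each member past 1.5-fold with melatonin. Others shown in full (PSAP, GRN, LAMP2, MCOLN1, GABARAPL1) and the single values of GLA and NPC1 were chosen after their values were seen. From each further list the rule took genes past 1.5-fold the same way at 24 h and 48 h, or otherwise the 2 largest differences at 48 h, of which the text names 1 per list.

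Of the genes, 57532 were found in GENCODE 44, all on the same chromosome. By that annotation 21 of 41 members share exon sequence with another gene, 18 of them on the opposite strand. The scripts were tested on simulated data. Python 3.11, numpy 2.4.6, pandas 2.3.3, scipy 1.17.1 and matplotlib 3.10.9 were used.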

Additional observations from a re-analysis of the deposited data

Results flagged for a closer look

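In 7 members the melatonin effect differed in direction between 24 h and 48 h, with the counting interval of the ratio above 1 at 24 h and below 1 at 48 h and the effects at least 1.5-fold apart. These were 7 of 39 members (17.9%), beside 1.39% of all 12775 genes counted at both times, 1.59% of the 8657 protein-coding genes that had 169 or more reads in each library and 4 of 136 further pathway genes (2.94%). The effect at 48 h less that at 24 h, as a difference of log2 fold changes, was -1.04 for the kinase ULK1, -0.93 for MAP1LC3B and -0.89 for LAMP2. It was -0.72 for the protease CTSL, -0.62 for the galactosidase GLB1, -0.60 for PSAP and -0.59 for LAMP1. In all 7 the DMSO library at 48 h was the highest of the 4. The rule that chose these genes leaves only that library or melatonin at 24 h as the highest, so this is partly built in. The difference itself was not tested, because each effect rests on 1 library per condition.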

How the results depend on the processing

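The alternatives were a pseudocount of 0.1, no minimum FPKM, a minimum of 5, TPM, centring on the median, reads on nuclear genes as the library size, a correction for GC content and length, and a 2-fold call, and after seeing the data the same correction over protein-coding genes with 50 reads. Of the members' counts and medians, 58 values stayed within the margin set and 10 moved. The margin was 1.5 times for a count. For a median it was the typical counting half-width of a single member's ratio, which is a wide margin for a median over all members. A 2-fold call can only lower a count. With it the count of members changed was 0 at 24 h (of 4 at 1.5-fold), 0 at 48 h (of 8), 4 over time in DMSO (of 12) and 0 over time with melatonin (of 5). As TPM it went to 8 at 24 h and to 29 over time in DMSO, and the medians of 0.18 at 24 h, 0.25 over time in DMSO and -0.00 over time with melatonin became 0.34, 0.75 and 0.25. On that scale the median of all genes also moved, by 0.15, 0.46 and 0.27. With a minimum FPKM of 5 the median over time in DMSO was 0.37. The members' median with melatonin lay between 0.15 and 0.34 at 24 h, and between -0.29 and -0.15 at 48 h, over the alternatives, and none reversed it. No paired analysis was possible because there is 1 library per condition and the labels carry no replicate numbers.

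Limits of depth were small for most members, since those counted had at least 169 reads in each library. MITF (5 to 24 reads) and CTSZ (14 to 37 reads) could not be compared. Treatment, culture, library and handling cannot be told apart with 1 library per condition, and neither can the DMSO library at 48 h and that condition.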

Other observations

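Outside the members, the mitophagy receptor genes BNIP3 and BNIP3L, chosen after their values were seen, had another order of libraries than the autophagy members. BNIP3 stood at 36.8 FPKM in DMSO and 18.2 under melatonin at 24 h and at 12.3 and 13.2 at 48 h, so that DMSO at 24 h was its highest library. BNIP3L stood at 14.9 and 12.0 FPKM at 24 h and at 8.05 and 8.04 at 48 h.

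Among the other hydrolases and their activators, GM2A, the activator that presents ganglioside GM2 to hexosaminidase, stood at 19.7 FPKM in DMSO and 25.9 under melatonin at 24 h and at 7.98 and 14.0 at 48 h, with its lowest level in DMSO at 48 h as for GAA and NAGLU. CTSK, a collagen-degrading protease, had its highest level in that library, at 0.664 FPKM in DMSO and 0.157 under melatonin at 24 h and at 3.99 and 0.883 at 48 h. Both were also chosen after their values were seen.

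The letters TCACGTG were in the promoters of 26 of 121 further pathway genes with a window (21.5%), beside 7 of 32 members (21.9%).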
